A study of Mus musculus with 28 samples.

Results

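The genes of the proteasome, the protease that degrades ubiquitin-tagged proteins, were followed in epidermal stem cells of mouse skin through inflammation, recovery and wounding. Members were the genes whose symbol is Psm, a letter from a to g and a number, without the inducible subunits Psmb8, Psmb9 and Psmb10 and without pseudogenes, and with a mean level of at least 1 CPM (counts scaled to a common library size). Of 48 symbols of that form among 47729 gene IDs, 43 were members. The 3 inducible subunits were left out by name, and Psma8 and Psmb11 fell below the minimum, at means of 0.0104 and 0 CPM. The members fall into 14 core particle genes (7 alpha ring and 7 beta ring subunits), 17 regulatory particle genes (6 ATPases and 11 non-ATPases), 5 genes of other activators and of an inhibitor, and 7 genes of assembly chaperones. All 43 members passed the filter on low counts, with at least 203 reads in every library.

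The mice were C57BL/6, labelled female, and were treated on the skin from postnatal day 60. Control mice received vanicream, a plain cream, for 6 days, and treated mice received topical imiquimod, an agonist of a Toll-like receptor that provokes a psoriasis-like inflammation, for 6 days. Cells positive for integrin A6, integrin B1 and Sca1 and negative for CD34 were sorted at day 6, at day 30 and, from mice of both treatments wounded at day 30, at 6 h and 12 h after the wound. Each of these 8 groups held 2 RNA-seq libraries, 16 in all of the 28 samples of the series. The 12 ATAC-seq samples were not used. The wounded groups that had received imiquimod are called post-imiquimod here. The labels do not say whether 2 libraries of a group came from separate mice or from pools, so p-values measure the spread between these libraries, which may be technical.

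The proteasome is a barrel, the core particle (20S), made of outer rings of alpha subunits and inner rings of beta subunits, 3 of which carry the proteolytic sites. The regulatory particle (19S) caps the barrel, receives ubiquitin-tagged proteins, removes the ubiquitin and unfolds the protein with its ring of ATPases. In immune responses the inducible subunits Psmb8, Psmb9 and Psmb10 can replace the catalytic subunits Psmb5, Psmb6 and Psmb7 and form the immunoproteasome, which makes peptides for presentation to T cells. When proteasome activity is short, the transcription factor Nfe2l1 raises many proteasome genes together through antioxidant response elements. The related factor Nfe2l2 reads the same kind of element.

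Total counts per library ran from 23623968 to 76993427. The genes that define the sorted cells (Krt5, Krt14, Itga6, Itgb1, Ly6a, Trp63 and Col17a1) were all read in every library and summed to 37443 to 74582 CPM. Both day 30 libraries numbered 1 went against the label of sex, with 0 and 1 reads of Xist and 7830 and 6023 reads of Y-linked genes. Counts or medians over the 43 members that use the day 30 groups are therefore also given without these 2 libraries, which leaves 1 library in each day 30 group. The share of counts from mitochondrially encoded genes was 7.65% in day 6 imiquimod library 1, 3.31% in day 6 control library 1 and at most 2.48% elsewhere. The 43 members together took 0.36% to 0.691% of the counts of a library.

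Because proteasome genes can move as a set, the sequences just before their start sites are shown first. RefSeq start sites (build GRCm38.p6) were found by symbol for 36 of the 43 members, 11 of the core and 14 of the regulatory particle. The stretches below are the 100 bases before the start of 5 members that turn up in the results, Psma5, Psmb3, Psmg1, Psmb5 and Psmb6, and of Psme1, a member that did not pass the test at day 6. Capitals mark matches, on either strand, to TGACNNNGC (the core letters of the antioxidant response element), CCAAT (the CCAAT box) or CCGGAA (the core letters bound by ETS factors).
Psma5, chr3:108256826-108256925, plus strand: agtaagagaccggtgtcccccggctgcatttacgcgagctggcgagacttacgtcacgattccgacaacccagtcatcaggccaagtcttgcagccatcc
Psmb3, chr11:97703334-97703433, plus strand: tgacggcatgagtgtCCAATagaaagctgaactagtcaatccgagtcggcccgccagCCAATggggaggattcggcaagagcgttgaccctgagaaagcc
Psmb5, chr14:54617996-54618095, minus strand: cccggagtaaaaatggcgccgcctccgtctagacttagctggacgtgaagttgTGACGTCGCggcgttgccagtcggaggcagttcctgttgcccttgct
Psmb6, chr11:70525257-70525356, plus strand: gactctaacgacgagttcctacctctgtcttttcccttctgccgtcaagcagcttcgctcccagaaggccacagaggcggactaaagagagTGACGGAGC
Psmg1, chr16:95990961-95991060, minus strand: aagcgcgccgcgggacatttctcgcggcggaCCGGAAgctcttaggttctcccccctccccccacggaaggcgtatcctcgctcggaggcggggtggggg
Psme1, chr14:55578394-55578493, plus strand: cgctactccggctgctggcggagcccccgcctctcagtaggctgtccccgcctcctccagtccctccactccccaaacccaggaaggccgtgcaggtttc

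The antioxidant response element core begins 47 bases before the start of Psmb5 and 9 bases before the start used for Psmb6, both catalytic subunits. The gene entry of Psmb6 begins further upstream, at chr11:70525324. By that start the match lies inside the gene. The 100 bases before the starts of Psmc4, Psmd1 and Psme3 were searched in the same way and are not printed. Psmc4 and Psmd1 had no match, and Psme3 had CCAAT beginning 14 bases before its start. Over the whole windows, from 250 bases before to 50 bases after the start, TGACNNNGC was present in 6 of the 36 members (Psmb5, Psmb6, Psmc6, Psmd12, Psmd9 and Psme4), which is 16.7%, beside 16.8% of the 11511 genes that were tested in these libraries and have such a window. CCGGAA was in 20 of the 36 members (55.6%), among them 10 of the 14 regulatory particle genes and 4 of the 11 core genes, beside 29.1% of the tested genes. CCAAT was in 12 members (33.3%), 6 of them core genes, beside 42.1% of the tested genes. Among the other motifs searched on both strands, TGAGNNNGC was in 12 members (33.3%, beside 22.9%), CACGTG in 3 (8.33%, beside 11.2%), TGACTCA in 1 (2.78%, beside 5.15%), and TGACGTCA and TTCCNGGAA in none of the 36 windows. TGACNNNGC shares its first letters with TGACGTCA and TGACTCA. These matches describe the letters of the windows and are not binding sites.

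At day 6, proteasome genes were higher with imiquimod across both particles. Of the 43 members, 38 were called higher and none lower by edgeR's quasi-likelihood test with Benjamini-Hochberg adjustment over 17299 genes at 0.05, where 36.6% of all genes tested were called and 21.6% were called higher. All 14 core genes and all 17 regulatory particle genes were among them. The median log2 change was 0.89 over the members, 0.91 over the core and 1.01 over the regulatory particle, beside 0.10 over all genes tested. Called changes of core genes ran from 0.57 (Psmb1) to 1.25 (Psma5), and those of regulatory particle genes from 0.63 (Psmd8) to 1.12 (Psmd1). With library totals in place of TMM scaling, which lowers the median of all genes by 0.207 on the log2 scale, 35 of the 38 were still called. The sum of the 14 core genes was 956 and 1120 CPM in the control libraries and 1813 and 2077 CPM in the imiquimod libraries. For the 17 regulatory particle genes the sums were 1638 and 1655 CPM against 3003 and 3388 CPM.

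**Figure D1:**
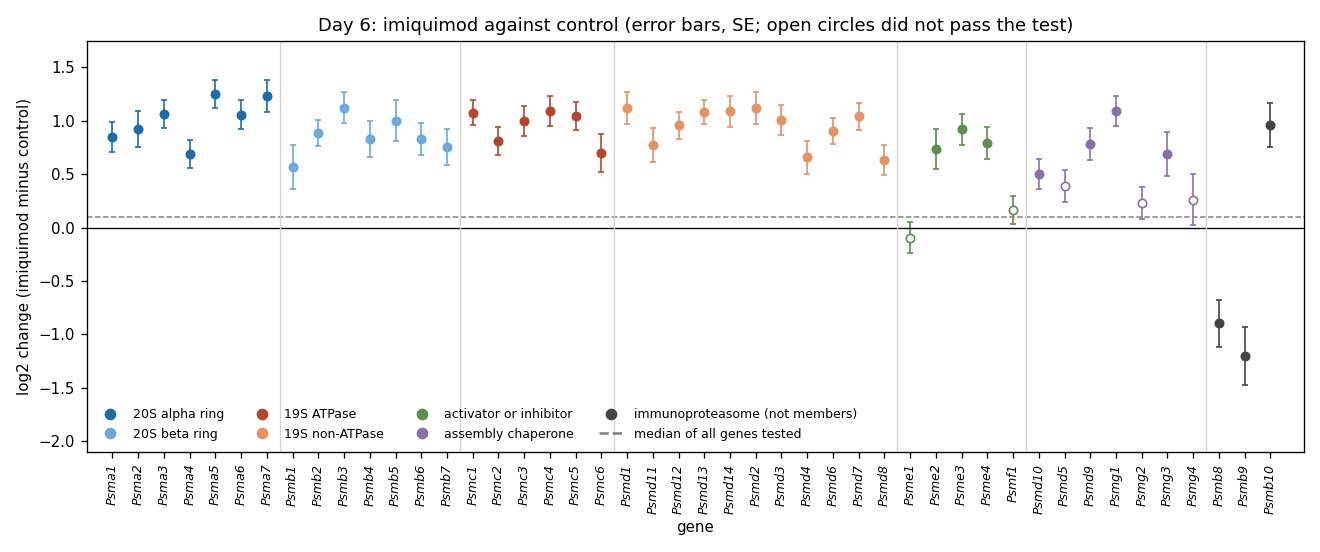
Log2 change at day 6 (imiquimod minus control, vertical axis) for each of the 43 members, grouped by role, and for the 3 inducible subunits at the right. Points are estimates and bars are SE; filled points passed the test and the dashed line is the median of all genes tested, 0.10. Every core and regulatory particle gene lies above the dashed line, while Psmb8 and Psmb9 lie below 0.

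Among alpha ring subunits, which form the gate of the barrel, Psma5 changed most. Its level was 29.1 and 32.5 CPM in the control libraries and 68.8 and 77.9 CPM in the imiquimod libraries, so that the groups were well apart. The log2 change was 1.25 with an SE of 0.13 (adjusted p = 2.69e-05). Psma7 was at 83.4 and 96.6 CPM in control and 204 and 219 CPM with imiquimod, a log2 change of 1.23 with an SE of 0.15 (adjusted p = 6.86e-05). The smallest change in this ring was that of Psma4, at 0.69.

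In the beta ring, Psmb3, which carries no active site, was at 42.4 and 49.5 CPM in control and 103 and 97.1 CPM with imiquimod. Its log2 change was 1.12 with an SE of 0.15 (adjusted p = 0.000105). The catalytic subunits rose as well. Psmb5, which holds the chymotrypsin-like site, went from 23.4 and 25.9 CPM to 50.8 and 47.8 CPM, a log2 change of 1.00 with an SE of 0.19 (adjusted p = 0.00147). Psmb6, with the caspase-like site, went from 82.7 and 93.7 CPM to 152 and 162 CPM, a log2 change of 0.83 with an SE of 0.15 (adjusted p = 0.000892). Psmb7, with the trypsin-like site, went from 49.1 and 64.0 CPM to 83.7 and 107 CPM, a log2 change of 0.75 with an SE of 0.17 (adjusted p = 0.0034). In none of the 3 did the groups overlap, although the call of Psmb7 was lost without day 6 control library 1 (adjusted p = 0.0564).

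Of the inducible counterparts, Psmb8 and Psmb9 fell and Psmb10 rose. Psmb8, the counterpart of Psmb5, was at 41.5 and 49.9 CPM in control and 25.7 and 23.3 CPM with imiquimod. It fell by 0.90 on the log2 scale with an SE of 0.22 (adjusted p = 0.00652), and the call was lost without day 6 control library 2 (adjusted p = 0.0539). Psmb9, the counterpart of Psmb6, was at 55.4 and 68.5 CPM in control and 31.3 and 22.5 CPM with imiquimod, a fall of -1.20 with an SE of 0.27 (adjusted p = 0.00416). Psmb10, the counterpart of Psmb7, went from 16.0 and 17.5 CPM to 35.9 and 29.1 CPM, a log2 change of 0.96 with an SE of 0.21 (adjusted p = 0.00314). For each of these 3 genes the imiquimod and control libraries did not overlap. At day 6, Psmb8 and Psmb9 thus went the other way from Psmb5 and Psmb6; the difference between counterparts was not tested as such.

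**Figure D2:**
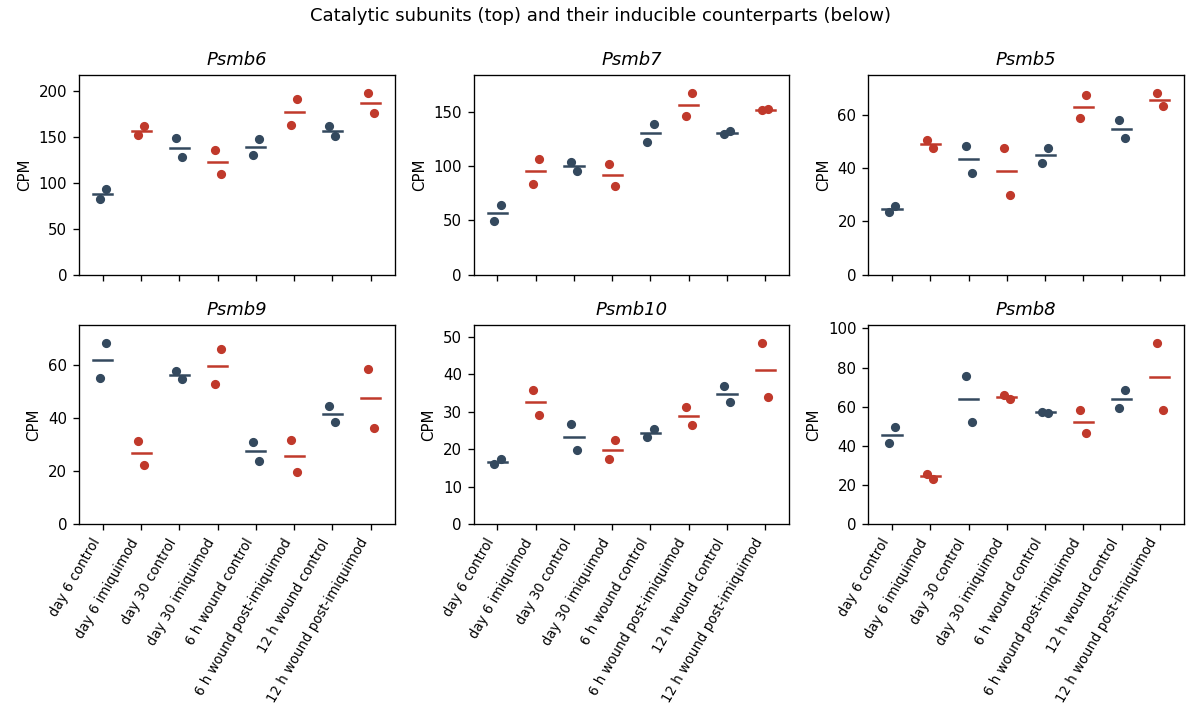
Level (CPM, vertical axis, from 0) of the catalytic subunits Psmb6, Psmb7 and Psmb5 (top) and of their inducible counterparts Psmb9, Psmb10 and Psmb8 (below) in the 8 groups. Points are libraries, red for imiquimod or post-imiquimod and dark for control, and lines are means of 2; Psmb9 is low with imiquimod at day 6 (31.3 and 22.5 CPM) and in all 6 h wounds.

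The ATPases, which unfold substrates and open the gate, were all called higher at day 6. Psmc4 stood at 78.8 and 68.0 CPM in control and at 159 and 153 CPM with imiquimod, a log2 change of 1.09 with an SE of 0.14 (adjusted p = 0.000103). Psmc1 stood at 87.6 and 89.1 CPM in control and at 180 and 192 CPM with imiquimod, a log2 change of 1.07 with an SE of 0.12 (adjusted p = 3.6e-05). The lowest of the 6 was Psmc6, at 0.69. The non-ATPase subunits were called to the same extent. The scaffold Psmd1 was at 94.7 and 100 CPM in control and 178 and 245 CPM with imiquimod, a log2 change of 1.12 with an SE of 0.15 (adjusted p = 0.000123). Psmd14, the deubiquitinase of the lid, was at 62.9 and 68.6 CPM in control and 122 and 157 CPM with imiquimod, a log2 change of 1.09 with an SE of 0.14 (adjusted p = 0.000117). Psmd4, a ubiquitin receptor, moved less, from 111 and 98.8 CPM to 166 and 165 CPM, a log2 change of 0.66 with an SE of 0.15 (adjusted p = 0.00471). Its call was lost without day 6 control library 2 (adjusted p = 0.0516).

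Activators and the inhibitor split. Psme3, the nuclear activator, was at 105 and 103 CPM in control and 181 and 211 CPM with imiquimod, a log2 change of 0.92 with an SE of 0.15 (adjusted p = 0.000401). Psme4, the large activator known from chromatin-linked degradation, was at 119 and 108 CPM in control and 165 and 228 CPM with imiquimod, a log2 change of 0.79 with an SE of 0.15 (adjusted p = 0.00151). Psme1 and Psme2 together form the interferon-responsive activator ring, yet only Psme2 was called. Its level was 80.5 and 94.5 CPM in control and 134 and 157 CPM with imiquimod, a log2 change of 0.73 with an SE of 0.18 (adjusted p = 0.00741). Without day 6 control library 1 or day 6 imiquimod library 2 that call was lost (adjusted p = 0.08 and 0.0617). Psme1 was at 89.7 and 111 CPM in control and 86.1 and 102 CPM with imiquimod, with overlapping groups and a log2 change of -0.09 with an SE of 0.14 (adjusted p = 0.651). The inhibitor Psmf1 was at 27.2 and 29.7 CPM in control and 31.2 and 32.7 CPM with imiquimod, a log2 change of 0.17 with an SE of 0.13 (adjusted p = 0.345).

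Of the 7 assembly chaperones, which help to build the particles and are not part of the finished proteasome, 4 were called higher. Psmg1, which guides the alpha ring, was at 18.7 and 17.2 CPM in control and 37.0 and 39.4 CPM with imiquimod, a log2 change of 1.09 with an SE of 0.14 (adjusted p = 0.00011). Psmg2, its partner in one complex, was at 28.4 and 31.4 CPM in control and 36.0 and 34.2 CPM with imiquimod and was not called (log2 change 0.23, SE 0.15, adjusted p = 0.243). Psmd9 (0.78), Psmg3 (0.69) and Psmd10 (0.50) were called, and Psmg4 (0.26) was not. The call of Psmg3 was lost without day 6 control library 1 or day 6 imiquimod library 1 (adjusted p = 0.186 and 0.16). Psmd5 (0.39, adjusted p = 0.0618) was called only with the replicate number as a block within each time point (0.37, adjusted p = 0.0171).

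Genes that work with the proteasome were examined in lists. Among 9 tested genes of other proteasome parts and partners, 7 were called higher and none lower at day 6. Uchl5, a deubiquitinase of the regulatory particle, was at 28.6 and 27.9 CPM in control and 56.0 and 73.6 CPM with imiquimod (log2 change 1.20, SE 0.18, adjusted p = 0.000246). Pomp, which closes core assembly, changed by 0.88 and the ubiquitin receptor Adrm1 by 0.87. Of 5 genes of the pathway that regulates proteasome transcription, Nfe2l2 and Vcp were called. Nfe2l2 went from 93.7 and 88.7 CPM to 212 and 272 CPM (log2 change 1.41, SE 0.22, adjusted p = 0.00042). Nfe2l1 was at 274 and 336 CPM in control and 347 and 307 CPM with imiquimod, with overlapping groups and a log2 change of 0.10. Of 6 ubiquitin and ubiquitin-activating genes 2 were called higher, Uba1 (0.76) and Rps27a (0.52), and of 5 tested shuttle genes, which carry tagged proteins to the proteasome, 3 were called higher, with Rad23b at 1.19.

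Markers of other cells, and of the sorted cells themselves, moved with the day 6 comparison. The 10 macrophage markers summed to 18.5 and 10.2 CPM in control and 72.4 and 86.5 CPM with imiquimod, and 7 of the 10 were called higher. Cxcr2, a neutrophil receptor, was at 2.39 and 0.18 CPM in control and 11.6 and 25.7 CPM with imiquimod (log2 change 3.73, adjusted p = 0.00561), while 2 of the 4 neutrophil markers were at 0 in each of these libraries. Ptprc, carried by all white blood cells and listed here with the T cell markers, was called higher (2.32, adjusted p = 0.0366). It went from 0.83 and 0.18 CPM to 2.10 and 3.17 CPM. Cd3g, the other tested gene of that list, went the other way and was not called (-4.92, adjusted p = 0.106). Both imiquimod libraries were below both control libraries for Cd3g. The suprabasal keratin Krt1 was called higher too (1.91, adjusted p = 0.00281). The rest of the suprabasal list was not called and was split in sign. Krt10 (-0.16) and Lor (-1.05) were below 0, and Ivl (1.49) and Flg (4.78) were above. Of the 7 genes that define the sorted cells, Krt14 was called higher (1.10, adjusted p = 0.0363), and Col17a1 (-1.64, adjusted p = 0.00213) and Trp63 (-0.75, adjusted p = 0.0123) were called lower. Fibroblast markers summed to 151 and 497 CPM in control and 153 and 442 CPM with imiquimod, with none of 6 called. No tested marker of Langerhans and dendritic cells, endothelial cells or melanocytes was called. The part of these markers in the changes of the members was not tested. In sorted cells measured in bulk, a different mix of cells and a different amount of RNA per cell cannot be told apart.

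At day 30, no member was called between post-treatment imiquimod and control mice, where 0.0116% of all genes tested, 2 genes, were called. All 43 estimates were nonetheless below 0, from -0.33 (Psma5) to -0.004 (Psmg4), with a median of -0.16 beside -0.02 over all genes tested and with 53.7% of those genes below 0. Of the members, 4 had an unadjusted p under 0.05 by edgeR, as did 4.14% of all genes tested, and DESeq2 called none of the 43. The members share these 4 libraries, so their common sign is not 43 separate observations. The sum over the core was 1662 and 1417 CPM in control and 1521 and 1221 CPM with imiquimod, with overlapping groups. For the regulatory particle the sums were 2339 and 2272 CPM against 2106 and 1925 CPM, without overlap. Psma5 was at 19.9 and 18.7 CPM in control and 16.2 and 14.6 CPM with imiquimod. The common sign was not complete under other scalings: 2 members were above 0 with the median of ratios and 6 with library totals, and 14 were above 0 without day 30 imiquimod library 2. Leaving out both day 30 libraries numbered 1 gave a median of -0.20 and no call.

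The effect of imiquimod at day 6 was larger than at day 30 for most members. The difference of the 2 effects was called for 36 of the 43 members, all higher at day 6, where 22.5% of all genes tested were called and 13.7% were called higher. These were 13 of the 14 core genes, all 17 regulatory particle genes and 6 others. The median difference was 1.07 on the log2 scale, beside 0.10 over all genes tested. It was largest for Psma5, at 1.58 with an SE of 0.19 (adjusted p = 0.000249). Without both day 30 libraries numbered 1 the count was 28. Psmb1 was the core gene not called (0.70, adjusted p = 0.107), and it was called with the replicate block within each time point (adjusted p = 0.00244), as was Psmd5. The calls of Psmd10 and Psme2 were lost with library totals (0.43 and 0.53, adjusted p = 0.201 and 0.167) and with some single libraries left out. Fitted on only the libraries compared, Psmb5, Psmd9, Psmd10, Psme2 and Psme4 lost their calls (adjusted p = 0.0712 to 0.146).

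**Figure D3:**
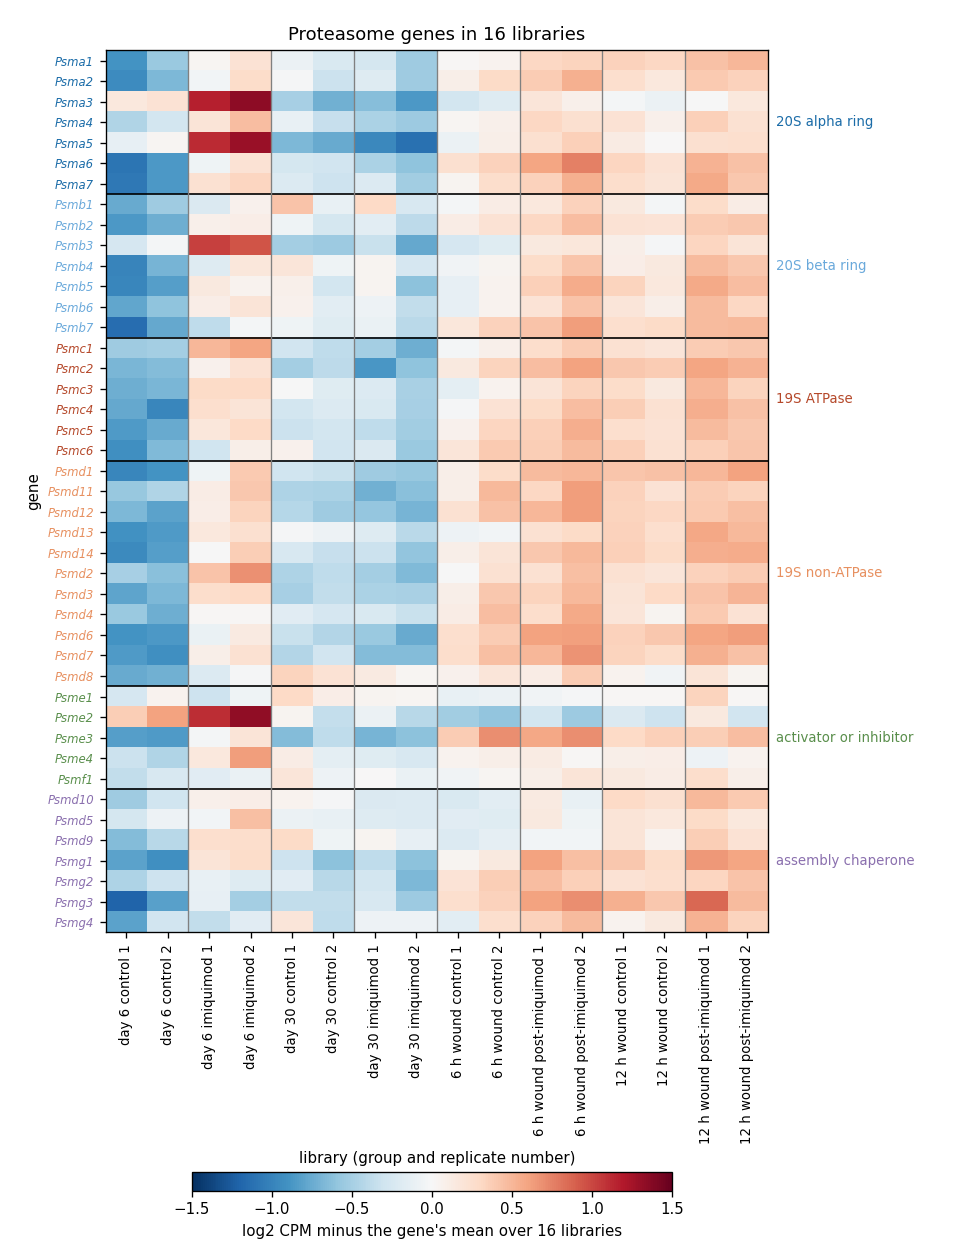
Level of each of the 43 members (rows, by role) in each of the 16 libraries (columns), as log2 CPM minus the gene's own mean over the libraries, from blue (low) to red (high). The day 6 control libraries are low for most members. Both day 6 imiquimod libraries are above all other libraries for Psma3, Psma5, Psmb3, Psmc1, Psme2 and Psme4.

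Control levels at the 2 times were not alike, and day 6 and day 30 controls differ in age and in time since the cream, which cannot be told apart. In 34 of the 43 members both day 6 control libraries were below both day 30 control libraries, and in 4 they were above. Over all genes tested, 29.5% were below in this way and 31.7% above. Without day 30 control library 1, an alternative added after the data were seen, the members again gave 34 below and 4 above, beside 40.7% and 41.6% of all genes tested. The ratio of day 6 to day 30 control means had a median of 0.71 over the members and 1.00 over all genes tested, or 0.73 and 1.02 without that library. It was lowest for Psmd8, at 0.495, and highest for Psma3, at 1.73, followed by Psma5 (1.59), Psme2 (1.56) and Psmb3 (1.32). Psma3, for example, was at 57.1 and 59.7 CPM at day 6 and 36.3 and 31.1 CPM at day 30 in control mice. The rings did not keep a fixed ratio between the times. The summed alpha ring over the summed beta ring was 0.994 and 0.987 in the control libraries of day 6. At day 30 it was 0.772 and 0.846 with the control cream. It was 0.735 and 0.809 in day 30 imiquimod libraries and 0.96 to 1.14 in the day 6 imiquimod and wound libraries. These are values with no test, and sums of counts per gene are not numbers of molecules, since gene length was not taken into account.

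Wounding was compared with the unwounded day 30 group of the same treatment. The 6 h and 12 h comparisons of a treatment share their day 30 libraries, so they are given side by side and are not independent of each other. In control mice 20 of the 43 members were called higher and none lower at 6 h, where 34.7% of all genes tested were called and 18.0% were called higher. At 12 h it was 25 higher and none lower, where 30.8% were called and 16.5% called higher. The regulatory particle was called more fully than the core, with 12 and 13 of 17 genes at 6 h and 12 h against 4 and 8 of 14. The difference between the particles was not tested. Median log2 changes were 0.50 and 0.61 for the regulatory particle and 0.32 and 0.38 for the core. The count at 6 h fell to 8 without 6 h wound control library 2, to 11 without day 30 control library 2 and to 13 without day 30 control library 1, and that at 12 h fell to 13 without 12 h wound control library 1. Without both day 30 libraries numbered 1 the counts were 16 and 24.

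Among core genes in control wounds, 4 of 7 alpha ring genes and none of 7 beta ring genes were called at 6 h, and 6 of 7 and 2 of 7 at 12 h. The difference between the rings was not tested. Some beta ring genes that were not called at 6 h had estimates near those of called alpha ring genes, with Psmb7 at 0.39, Psmb2 at 0.32 and Psmb3 at 0.31 beside Psma3 at 0.37. With the replicate block within each time point, Psmb2 and Psmb7 were called at 6 h (adjusted p = 0.0113 and 0.0064). Psma5 was at 19.9 and 18.7 CPM at day 30, at 29.9 and 33.8 CPM at 6 h and at 34.7 and 31.8 CPM at 12 h. The log2 changes were 0.72 with an SE of 0.13 at 6 h (adjusted p = 0.00125) and 0.78 with an SE of 0.13 at 12 h (adjusted p = 0.000887). Among the catalytic subunits, Psmb5 was at 48.5 and 38.2 CPM at day 30, 42.1 and 47.8 CPM at 6 h and 58.2 and 51.6 CPM at 12 h. It was not called at either time, with log2 changes of 0.05 and 0.34 (adjusted p = 0.858 and 0.198). Psmb6 (0.01 and 0.18) and Psmb7 (0.39 and 0.39) were not called either. Under library totals, which raise the median of all genes by 0.188 at 12 h, all 3 were called at 12 h. With the replicate block Psmb5 and Psmb7 were called at 12 h (adjusted p = 0.0286 and 0.00636).

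In the regulatory particle, Psmd12, a lid subunit, changed most at 6 h in control mice. It was at 85.1 and 79.1 CPM at day 30, 134 and 154 CPM at 6 h and 144 and 141 CPM at 12 h. The log2 change was 0.81 with an SE of 0.13 at 6 h (adjusted p = 0.000443) and 0.80 with an SE of 0.13 at 12 h (adjusted p = 0.000631). Psmd6 and Psmd7, also of the lid, changed by 0.70 and 0.72 at 6 h and were called. The ATPase Psmc2 was at 104 and 112 CPM at day 30, 164 and 186 CPM at 6 h and 196 and 192 CPM at 12 h, with log2 changes of 0.70 and 0.84 (SE 0.13 for both, adjusted p = 0.00151 and 0.000541). Psmd8 was an exception, at 267 and 245 CPM at day 30, 221 and 239 CPM at 6 h and 219 and 204 CPM at 12 h. Its wound libraries lay below the day 30 libraries, with log2 changes of -0.15 and -0.27 that were not called (adjusted p = 0.42 and 0.151). The 12 h change was called lower under the replicate block (-0.27, adjusted p = 0.0399).

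**Figure D4:**
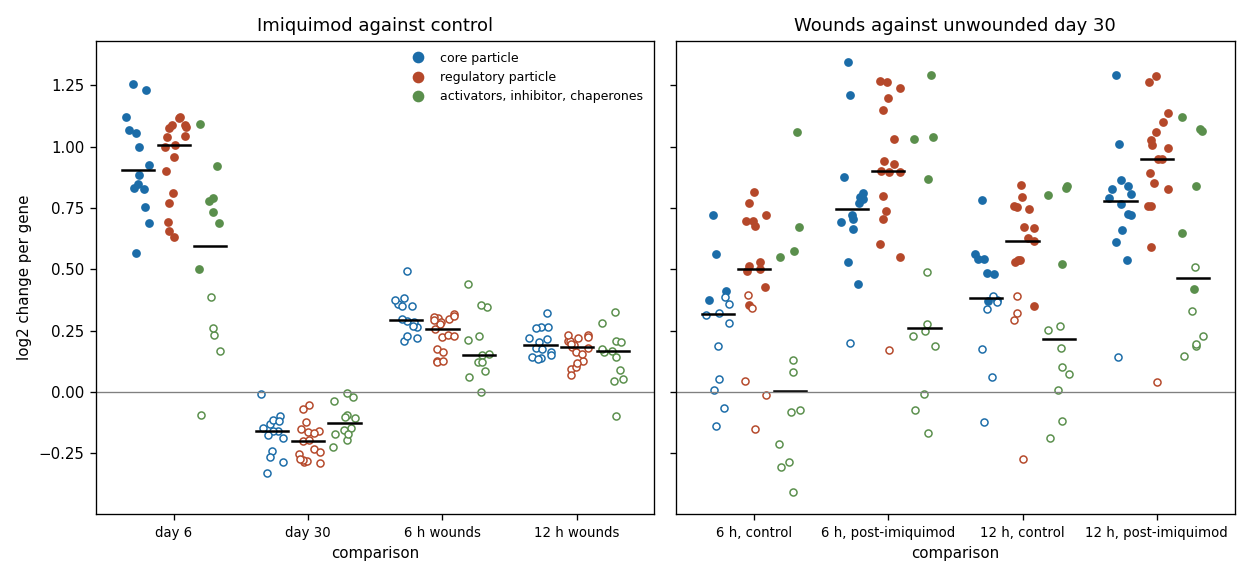
Log2 change (vertical axis) of each member in 4 comparisons of imiquimod with control (left) and 4 comparisons of wounds with unwounded day 30 skin (right); filled points passed the test, open points did not, and black lines are medians of the core, regulatory and remaining members. Every point in the 3 later imiquimod comparisons is open, and the medians of both particles are above 0.5 in post-imiquimod wounds.

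Of the activators, Psme3 was called higher after wounding. In control mice it was at 118 and 142 CPM at day 30, 242 and 301 CPM at 6 h and 228 and 237 CPM at 12 h. The log2 change at 6 h, 1.06 with an SE of 0.15 (adjusted p = 0.000195), was the largest of the 43 members, and that at 12 h was 0.83 with an SE of 0.15 (adjusted p = 0.0011). Psme2, by contrast, was at 63.8 and 48.7 CPM at day 30 and 43.3 and 41.4 CPM at 6 h, a log2 change of -0.41 that was not called (adjusted p = 0.105). At 12 h Psme2 was at 53.7 and 50.0 CPM, within the range of the day 30 libraries. Psme1 (-0.31 and -0.19), Psme4 (0.08 and 0.10) and Psmf1 (-0.07 and 0.07) were not called at 6 h or 12 h. With the replicate block within each time point, Psme1 (-0.30, adjusted p = 0.0385) and Psme2 (-0.40, adjusted p = 0.014) were called lower at 6 h in control wounds.

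The chaperones Psmg1, Psmg2 and Psmg3 were called at both times in control wounds. Psmg3, a partner in the other alpha ring chaperone complex, was at 9.6 and 9.59 CPM at day 30, 14.8 and 15.8 CPM at 6 h and 17.9 and 16.4 CPM at 12 h. Its log2 changes were 0.67 with an SE of 0.21 (adjusted p = 0.0227) and 0.84 with an SE of 0.21 (adjusted p = 0.00822). The 6 h call was lost without any 1 of the 4 libraries compared (adjusted p = 0.0526 to 0.106), and the 12 h call without 12 h wound control library 1 (adjusted p = 0.0582). Psmg1 was at 26.2 and 21.2 CPM at day 30, 33.5 and 35.9 CPM at 6 h and 43.1 and 39.4 CPM at 12 h, with log2 changes of 0.55 and 0.80 (adjusted p = 0.00933 and 0.00116). Its 6 h call was lost without day 30 control library 2 or 6 h wound control library 2 (adjusted p = 0.0726 and 0.0644). Psmg2 was at 34.6 and 29.4 CPM at day 30, 45.0 and 50.2 CPM at 6 h and 45.5 and 46.4 CPM at 12 h, with log2 changes of 0.57 and 0.52 (adjusted p = 0.00963 and 0.0177). Its 6 h call was lost without day 30 control library 2 or 6 h wound control library 2 (adjusted p = 0.0695 and 0.0755), and its 12 h call without day 30 control library 2 or either 12 h wound control library (adjusted p = 0.0695 to 0.112). Fitted on only the libraries compared, none of the 3 was called at 6 h (adjusted p = 0.0585 to 0.078). Psmd5, Psmd9, Psmd10 and Psmg4, the other 4, were not called at either time.

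In post-imiquimod wounds more members were called, 33 at 6 h and 35 at 12 h, all higher, where 38.7% and 37.6% of all genes tested were called and 20.1% and 20.3% were called higher. At both times these included 13 of 14 core genes and 16 of 17 regulatory particle genes, the exceptions being Psmb1 and Psmd8. Median log2 changes were 0.79 and 0.83. Without both day 30 libraries numbered 1 the counts were 33 and 34 and the medians 0.90 and 0.92. Psma5 rose from 16.2 and 14.6 CPM at day 30 to 37.4 and 40.8 CPM at 6 h and 37.5 and 37.8 CPM at 12 h. These were log2 changes of 1.34 and 1.29 with an SE of 0.13 for both (adjusted p = 1.74e-05 and 2.82e-05). The catalytic subunits were called here, with some of the calls resting on single libraries. Psmb7 went from 102 and 82.1 CPM at day 30 to 146 and 168 CPM at 6 h and 152 and 153 CPM at 12 h, log2 changes of 0.77 and 0.73 (adjusted p = 0.0028 and 0.00429). Psmb5 went from 47.5 and 30.1 CPM at day 30 to 59.1 and 67.5 CPM at 6 h and 68.4 and 63.4 CPM at 12 h, log2 changes of 0.71 and 0.77 (adjusted p = 0.011 and 0.00739). Its calls were lost without day 30 imiquimod library 2 (adjusted p = 0.141 and 0.0935), as was that of Psmb7 at 12 h (adjusted p = 0.0633). The 6 h call of Psmb5 was also lost without 6 h wound post-imiquimod library 2 (adjusted p = 0.0947). Psmb6 went from 135 and 110 CPM at day 30 to 163 and 191 CPM at 6 h and 198 and 176 CPM at 12 h, log2 changes of 0.53 and 0.61 (adjusted p = 0.0124 and 0.0061). Its 12 h call was lost without day 30 imiquimod library 2 or 12 h wound post-imiquimod library 1 (adjusted p = 0.0838 and 0.0613).

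Psmd6 and Psmc2 led the regulatory particle in post-imiquimod wounds. Psmd6 was at 84.4 and 73.4 CPM at day 30, 189 and 191 CPM at 6 h and 187 and 191 CPM at 12 h, log2 changes of 1.27 and 1.26 with an SE of 0.12 (adjusted p = 1.7e-05 and 2.22e-05). Psmc2 was at 80.7 and 97.6 CPM at day 30, 203 and 224 CPM at 6 h and 223 and 213 CPM at 12 h, log2 changes of 1.26 and 1.29. Both genes were above their unwounded levels in every wound library. At 12 h Psmd14 changed by 1.00, Psmd1 by 1.10 and Psmd4 by 0.59 (adjusted p = 0.000208, 0.000137 and 0.00863), with the call of Psmd4 lost without day 30 imiquimod library 2 (adjusted p = 0.0717) or 12 h wound post-imiquimod library 1 (adjusted p = 0.0793). Psme3 was again the only called activator, at 1.29 and 1.07. The other 4 of that class changed by 0.15 to 0.23 at 12 h and were not called.

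Of the inducible subunits, Psmb9 was low at 6 h in both treatments. In control mice it was at 58.0 and 54.8 CPM at day 30, 31.2 and 23.9 CPM at 6 h and 44.6 and 38.6 CPM at 12 h. It fell by 1.03 at 6 h (SE 0.27, adjusted p = 0.011), a call that was lost without 6 h wound control library 2 (adjusted p = 0.106) and without both day 30 libraries numbered 1 (adjusted p = 0.0536). In post-imiquimod mice it went from 53.1 and 66.0 CPM to 31.8 and 19.8 CPM at 6 h, a fall of -1.20 (SE 0.27, adjusted p = 0.00408). At 12 h it was not called in either treatment (-0.44 and -0.33). Psmb8 was not called in any wound comparison, and Psmb10 was called at 12 h in post-imiquimod wounds (1.04, adjusted p = 0.00185). In control wounds at 12 h Psmb10 was just short of the threshold (0.58, adjusted p = 0.0504). At 6 h in post-imiquimod wounds it was called without the filter on low counts (0.59, adjusted p = 0.0312).

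Partners and regulators in control wounds gave 4 called higher and 1 lower of 9 partners at 6 h, and 3 higher and 1 lower at 12 h. Uchl5 was at 39.4 and 32.0 CPM at day 30, 65.3 and 78.1 CPM at 6 h and 68.2 and 61.8 CPM at 12 h, log2 changes of 1.01 and 0.87. Zfand5, a proteasome-binding protein, was the gene called lower, from 373 and 381 CPM to 182 and 213 CPM and 119 and 149 CPM, log2 changes of -0.93 and -1.49. Nfe2l2 was at 203 and 118 CPM at day 30, 311 and 371 CPM at 6 h and 226 and 235 CPM at 12 h. It was called at 6 h (1.09, adjusted p = 0.00252) and not at 12 h (0.52, adjusted p = 0.0894). In the same list, Ddi2 was called higher at 6 h (0.50, adjusted p = 0.0173) and not at 12 h (0.25). Vcp was called higher at 12 h (0.46, adjusted p = 0.00915) and not at 6 h (0.28). Nfe2l1 (-0.42 and -0.35) and Ngly1 (-0.26 and 0.23) were not called at either time. Ubb, a polyubiquitin gene, fell by 0.76 at 6 h and 1.05 at 12 h (adjusted p = 0.0032 and 0.000523).

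**Figure D5:**
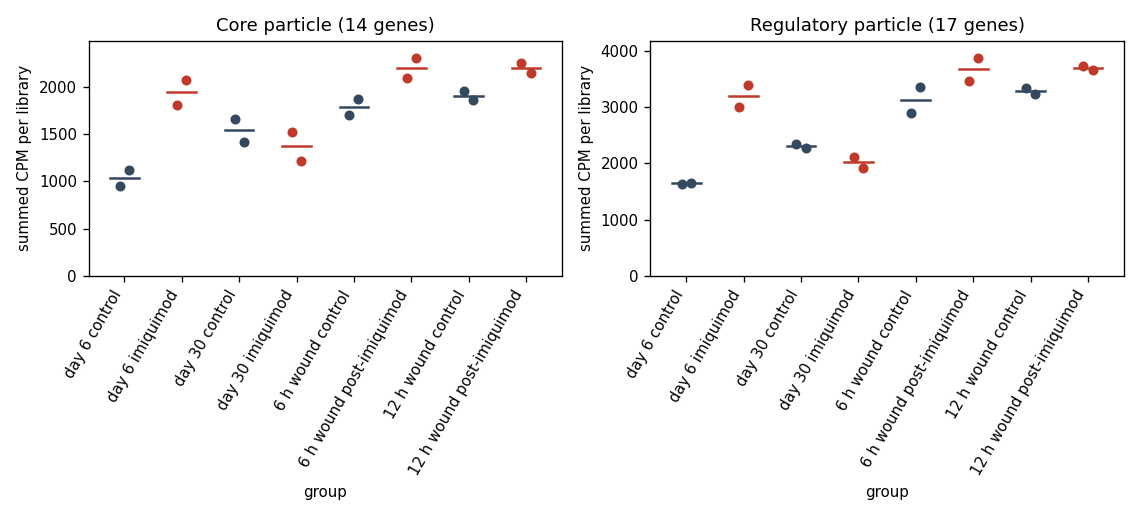
Summed CPM (vertical axis, from 0) of the 14 core particle genes (left) and the 17 regulatory particle genes (right) in each library of the 8 groups; points are libraries, red for imiquimod or post-imiquimod and dark for control, and lines are means of 2. Both sums are lowest in day 6 control, at 956 and 1120 CPM for the core, and highest in post-imiquimod wounds.

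Other cell markers also differed between wounds and day 30. The 4 neutrophil markers summed to 0.31 to 2.13 CPM in the 4 day 30 libraries and 70.5 to 184 CPM in the 8 wound libraries, nearly all of it from Cxcr2, the 1 gene of that list abundant enough to be tested; 1 to 3 of the 4 markers were at 0 in each wound library. The 10 macrophage markers summed to 2.48 to 2.94 CPM at day 30 and 7.15 to 17.4 CPM in wounds. In control mice 6 of the 10 were called higher at 6 h and 3 at 12 h. Markers of suprabasal keratinocytes, the layer that stem cells give rise to, summed to 14666 to 28184 CPM at day 30 and 4681 to 8498 CPM in wounds. In control mice 2 of the 5 were called lower at both times. Fibroblast markers summed to 148 CPM in day 30 imiquimod library 1 and 1.65 to 3.98 CPM in the other day 30 libraries. They summed to 53.3 and 20.5 CPM at 6 h in control wounds, where Pdgfra (4.77, adjusted p = 0.0058) and Dcn (4.40, adjusted p = 0.0153) were called higher, and to 1.66 to 11.9 CPM in the other wound libraries. At 12 h in control wounds Pdgfra was called (3.79, adjusted p = 0.0262). The 4 melanocyte markers summed to 3.41 and 3.48 CPM in day 30 control and 4.01 and 2.58 CPM at 6 h in control wounds, where Tyrp1 (7.25, adjusted p = 0.0195) and Dct (2.32, adjusted p = 0.0338) were called higher. Tyrp1 had no reads in either day 30 control library, so its fitted change is not a fold. Pmel, of the same list, went the other way at 6 h in control wounds and was not called (-1.14, adjusted p = 0.0614). Both of those wound libraries were below both day 30 control libraries for Pmel. Of the genes that define the sorted cells, Itgb1 and Ly6a were called higher at 6 h (1.14 and 1.30) and 12 h (1.15 and 1.16) in control wounds. The part of these cells in the changes of the members was not tested.

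Wounds of post-imiquimod and control mice were then compared directly. No member was called at 6 h, where 0.0347% of all genes tested, 6 genes, were called, or at 12 h, where 0% of the 17299 genes were called. At 6 h all 43 estimates were above 0, with a median of 0.26, beside -0.01 over all genes tested and 49% of those genes above 0. Of the members 13 had an unadjusted p under 0.05, as did 6.31% of all genes tested, and DESeq2 called none. At 12 h 42 of 43 were above 0, the exception being Psme4 at -0.10, with a median of 0.18, while 50.5% of all genes tested were above 0. None of the members had an unadjusted p under 0.05, which 2.46% of all genes tested had. DESeq2 called none there and had 1 unadjusted p under 0.05. In 34 members at 6 h both post-imiquimod libraries were above both control libraries, which held for 19.4% of all genes tested. In 34 it held at 12 h, beside 20.4% of all genes tested. Library pairs thus sat in one order for many members, by amounts that the test over 2 libraries a group did not call.

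The summed values show the size of these differences. At 6 h the core sum was 1705 and 1870 CPM in control wounds and 2098 and 2304 CPM in post-imiquimod wounds. At 12 h it was 1953 and 1860 CPM against 2255 and 2151 CPM. The regulatory particle sum was 2896 and 3349 CPM against 3466 and 3868 CPM at 6 h, and 3342 and 3223 CPM against 3734 and 3661 CPM at 12 h. Post-imiquimod libraries were above control libraries in all 4 sets. The largest single estimate at 6 h was that of Psmb5, at 0.49 with an SE of 0.19 (adjusted p = 0.667), with libraries at 42.1 and 47.8 CPM against 59.1 and 67.5 CPM. At 12 h the panel gave Psmb5 0.27, Psmb6 0.26, Psmb7 0.22, Psmd1 0.13, Psmd4 0.20, Psmd14 0.22, Psme1 0.16, Psme2 0.21, Psme3 0.09 and Psmf1 0.05, with none called.

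Whether prior imiquimod changed the response to the wound was tested as the difference of the wound effects. Again no member was called at 6 h or 12 h, nor was any of the 17299 genes. All 43 differences were above 0 at both times, with medians of 0.40 and 0.33 beside 0.01 and 0.02 over all genes tested, of which 50.5% and 52% were above 0. Unadjusted p-values were under 0.05 for 20 members at 6 h and 9 at 12 h, as for 6.11% and 2.91% of all genes tested, and DESeq2 called none. A larger count of called members in post-imiquimod wounds than in control wounds is therefore not a called difference between them. Part of each difference comes from the day 30 libraries, where all 43 estimates of imiquimod were below 0. Without both day 30 libraries numbered 1 the medians were 0.48 and 0.37.

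Between 6 h and 12 h no member was called in either treatment, where 0.647% of all genes tested were called in control wounds and 0.173% in post-imiquimod wounds. Of the members, 3 had an unadjusted p under 0.05 in each treatment, as did 13.8% and 10.7% of all genes tested. In control wounds Psmd10 was called by DESeq2 (0.44, adjusted p = 0.0491) and Psmd13 with the replicate block (0.36, adjusted p = 0.0374). Psmd13 was at 111 and 113 CPM at 6 h and 149 and 139 CPM at 12 h. Psme3 was the member with the lowest estimate, -0.23, at 242 and 301 CPM at 6 h and 228 and 237 CPM at 12 h.

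Annotated copies could take reads from some members. Psmb5-ps, Psmb6-ps, Psmb6-ps2 and Psmb7-ps2 had at most 6 reads in any library, and Psme2b had 14 to 79. The treatment of reads that match several copies is not stated in the labels or the files.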

How the data were processed

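The deposited counts are raw reads per gene, which the authors made with STAR on mm10 per the submitters' processing notes. Versions, the annotation release and the strand column kept are unstated there. Libraries were made with the TruSeq RNA preparation per the labels' protocols. Of 47729 gene IDs, 47224 matched a symbol, and those without one held at most 0.0887% of a library's counts. The main test was edgeR 4.0.16 under R 4.3.3 (TMM scaling, filterByExpr, robust quasi-likelihood) in 1 fit of 8 group means over 16 libraries, with 8 residual degrees of freedom. Two-sided p-values were adjusted over 17299 genes by Benjamini-Hochberg, with a threshold of 0.05. An exact permutation test of 2 libraries against 2 cannot go below p = 0.333. CPM are TMM-scaled, apart from the means set against the 1 CPM minimum (Psma8 and Psmb11 included), which use library totals. Each SE belongs to a log2 change. On simulated data with known changes in the day 6 comparison over 17299 genes, 20% of 2-fold and 68% of 4-fold increases were recovered. The changed genes were drawn at random from all genes tested, so these rates are not those of the members.

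The members and lists were chosen with earlier results of these data known. The rule for naming gave values for up to 3 members per class with the largest called change, any member called against the majority, and a panel of catalytic subunits, receptors and activators at day 6 and 12 h. Some others (Psmd8, Psmd13, Psme2 at 6 h, Zfand5 and Ubb among them) were named after their values were seen. Libraries with the same replicate number deviated together within each time point (correlations of 0.22 at day 6, 0.452 at day 30, 0.54 at 6 h and 0.323 at 12 h), but not between time points (-0.285 to 0.115). The numbers were therefore taken to pair libraries within a time point. Alternatives were DESeq2 1.42.0, other scalings, no filter, the replicate block, only the libraries compared, and leaving out libraries.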

Additional observations from a re-analysis of the deposited data

Results flagged for a closer look

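The effect of imiquimod at day 6 differed from that at day 30 by the test of the difference itself, for 13 core particle genes, 17 regulatory particle genes and 6 of the other members, each larger at day 6. Among the other members, the calls of Psmd10 and Psme2 were lost with library totals (adjusted p = 0.201 and 0.167). The day 6 control libraries were also below the day 30 control libraries in 34 of the 43 members, as they were in 29.5% of all genes tested, while 31.7% of all genes were above.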

How the results depend on the processing

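Counts of called members at day 6 ran from 31 to 39 over the alternatives, and no member was called at day 30, between the treatments in wounds, or for the difference of the wound responses under any alternative run. In control wounds at 6 h, where 20 were called, 9 were called from only the libraries compared and 8 to 16 with 1 library left out. At 12 h, where 25 were called, leaving out 1 library gave 13 to 22. Between 6 h and 12 h in control wounds, 1 was called by DESeq2 and 1 with the replicate block within each time point.

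With the replicate block within each time point, 39 members were called at day 6 and 38 for the difference between day 6 and day 30. In wounds against day 30 that block gave 28 (26 higher, 2 lower) and 32 (31 higher, 1 lower) in control mice and 33 and 36 in post-imiquimod mice. The numbers do not pair libraries between time points, so for those comparisons this fit leaves the spread between numbers out of the error. At 12 h in control wounds it added calls of Psma2, Psmb5, Psmb7, Psmc3, Psmc6 and Psmd4, all higher (adjusted p = 0.00602 to 0.0286), and of Psmd8, lower (adjusted p = 0.0399). At 6 h in control wounds it added Psma2, Psma4, Psmb2, Psmb7, Psmc4 and Psmc6, all higher, and Psme1 and Psme2, lower (adjusted p = 0.0064 to 0.0385).

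Genes whose estimate changed sign were none of them called. With library totals Psmf1 at day 6 was at -0.0456, and Psme1 and Psme2 at 12 h in control wounds were at 0.0053 and 0.0797. Without both day 30 libraries numbered 1, Psmb8 at 6 h in control wounds was at 0.106 and Psme2 at 12 h at 0.0554. With 1 library left out, Psme1 at day 6 ran from -0.27 to 0.0588. In control wounds, Psmb8 ran from -0.39 to 0.128 and Psmb10 from -0.118 to 0.285 at 6 h. At 12 h Psme2 ran from -0.289 to 0.0775, Psme4 from -0.0127 to 0.225 and Psmf1 from -0.0431 to 0.196. In post-imiquimod wounds at 12 h, Psme1 ran from -0.0376 to 0.266 and Psme2 from -0.066 to 0.359. The cause was not tested. Gene lengths were not used, so no alternative on length was run. In the simulated data, whose changed genes were drawn from all genes tested, 20% of 2-fold increases were recovered. That rate is not one for the members. At day 6 every member with a log2 change of at least 0.50 (Psmd10) was called.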
